A study of Mus musculus with 6 samples.

Results

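The antioxidant genes controlled by the transcription factor Nrf2 were followed in mouse embryonic stem cells (mESCs) by RNA-seq. They were 10 genes picked by symbol: Nfe2l2, Keap1, Gclc, Gclm, Slc7a11, Txnrd1, Srxn1, Nqo1, Akr1b8 and Hmox1. The deposited table holds 28584 gene symbols, and all 10 members were found in it. The 18556 genes (64.9%) with at least 1 TPM (a read count corrected for gene length and scaled to the same total in every library) in at least 2 libraries were tested. All 10 members were among them.

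The cells were mESCs derived from C57BL/6 X 129S6 blastocysts. All groups had first grown for 5 passages on mouse embryonic fibroblast feeder cells that mitomycin C had inactivated, and were then split between 3 media for 10 passages (P10). LIF-ESCs received 1000 U/mL leukemia inhibitory factor (LIF), OSM-ESCs received 10 ng/mL oncostatin M (OSM) instead, and the control, -LIF-ESCs, had the same basic medium with serum but neither cytokine. LIF and OSM are cytokines of the interleukin-6 family that signal through gp130 and Stat3. Each group had 2 libraries, described as biological replicates of the same mESCs, so the p-values measure the spread between these libraries and not between lines. The comparison asks whether the genes sit at the same level when OSM replaces LIF, with the cytokine-free cells as the control.

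Nrf2, the product of Nfe2l2, is a basic leucine zipper factor held at low levels by Keap1, which presents it to a Cul3 ubiquitin ligase for degradation. Oxidants and electrophiles modify cysteines of Keap1, Nrf2 escapes, and with a small Maf protein it binds antioxidant response elements near genes for glutathione synthesis, thioredoxin reduction, quinone detoxification and heme breakdown. The control is thus largely on the protein, and a transcript level does not report how much Nrf2 is in the nucleus.

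The extract protocol among the labels names ovaries, against the titles, source names and growth protocol, which all give mESCs, so the cells were checked against marker genes. The 10 pluripotency markers were all detected in every library, with a summed level of 5427 to 5439 TPM in -LIF-ESCs, 7414 to 7482 TPM in LIF-ESCs and 6915 to 6949 TPM in OSM-ESCs. Against -LIF-ESCs, 8 of the 10 were higher and 1, Nanog, was lower in LIF-ESCs, with the same counts in OSM-ESCs. Nanog had means of 433 TPM in -LIF-ESCs, 290 TPM in LIF-ESCs and 261 TPM in OSM-ESCs. This runs against the study, which lists Nanog among the genes that its RNA-seq found higher with either cytokine. The study also reports less Nanog protein in -LIF-ESCs. Markers of simple epithelium and trophoblast (8 genes in the table, such as the keratins Krt8 and Krt18) summed to 2385 to 2405 TPM in -LIF-ESCs but 59.7 to 61.2 TPM in LIF-ESCs and 70.3 to 75.4 TPM in OSM-ESCs. Fibroblast markers (23 genes) summed to 509 to 541 TPM, 900 to 901 TPM and 1358 to 1360 TPM in the same order, with Fap at 0 in -LIF-ESCs. Tagln alone was at 365 and 343 TPM in the -LIF-ESCs libraries, so the sum hides how low most of the list was there. The median of the list was 2.03 and 1.48 TPM in -LIF-ESCs, 17.0 and 16.8 TPM in LIF-ESCs and 21.6 and 21.5 TPM in OSM-ESCs. Whether feeder cells were still present at P10 is not given in the sources used here. Markers of primitive endoderm (10 genes) summed to 92.7 to 94.6 TPM, 171 to 173 TPM and 155.2 to 156 TPM, and 6 macrophage markers to 46.1 to 47.6 TPM, 21.8 to 23.9 TPM and 22.0 to 23.5 TPM. Most of the macrophage sum, and its fall, was the gene Cd68, at means of 40.0, 15.9 and 15.2 TPM. Csf1r was level at 6.29, 6.61 and 6.40 TPM. The macrophage genes Adgre1 and Tyrobp were at 0 in -LIF-ESCs and LIF-ESCs, and Lyz2 was at 0 in -LIF-ESCs, but none was at 0 in OSM-ESCs. There they rested on 2 and 5 reads (Adgre1), 2 and 1 reads (Tyrobp) and 8 and 8 reads (Lyz2). These genes were too low to be tested. In such bulk samples, fewer cells of a type and less RNA per cell cannot be told apart. The part of these cell types in the levels of the 10 genes was not tested.

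The antioxidant response element is the DNA word through which Nrf2 acts, so its core letters were looked for next to the genes. RefSeq promoters (GRCm38.p6) of 300 bases, 250 before and 50 after a start, were given for 8 of the 10 members, in 10 windows since Txnrd1 has 3 starts. The core TGACNNNGC, read on both strands, was in 4 of the 10 windows and in 12.4% of 32851 promoters. The next windows carry it upstream of the start, with the core in capitals as it reads on the strand of the gene.
Nfe2l2, chr2:75704875-75704913, minus strand: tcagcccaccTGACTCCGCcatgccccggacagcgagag
Gclm, chr3:122245403-122245451, plus strand: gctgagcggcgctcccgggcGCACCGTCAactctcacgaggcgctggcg
Txnrd1, chr10:82859094-82859142, plus strand: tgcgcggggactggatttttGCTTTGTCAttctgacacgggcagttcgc
The core starts 240 bases before the start in Nfe2l2, 134 bases in Gclm and 92 bases in Txnrd1, where it lies inside the gene, before the second of its starts. In Gclm and Txnrd1 the core runs on the opposite strand. The fourth match was in Srxn1, 29 bases into the transcribed part.

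The shorter AP-1 word TGANTCA, bound by Jun and Fos factors, can overlap the antioxidant core in its letters. It was in 7.8% of all promoters and in the window of Srxn1, which has it at 102 and at 45 bases before the start, in neither case over the antioxidant core.
Srxn1, chr2:152105402-152105448, plus strand: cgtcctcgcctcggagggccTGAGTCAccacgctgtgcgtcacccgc
Srxn1, chr2:152105459-152105505, plus strand: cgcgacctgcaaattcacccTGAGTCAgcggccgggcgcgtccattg
The Stat word TTCNNNGAA, of interest because both cytokines activate Stat3, was in 8.3% of all promoters and in 3 of the 10 member windows, 1 of Slc7a11 and 2 of Txnrd1.
Slc7a11, chr3:50443768-50443816, minus strand: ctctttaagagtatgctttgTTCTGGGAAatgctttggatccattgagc
Txnrd1, chr10:82860248-82860296, plus strand: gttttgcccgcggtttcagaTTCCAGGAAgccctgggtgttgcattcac
None of the 3 words was in the windows of Keap1, Nqo1 and Akr1b8, which says only that these letters are not there. These matches are descriptions of sequence and not binding sites shown by these data.

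Against -LIF-ESCs the members did not move as 1 group. Nfe2l2, Srxn1, Akr1b8 and Hmox1 were higher in LIF-ESCs, and the other 6 were lower, all at an adjusted p under 0.05 in limma over all genes tested. The same 4 were higher and the same 6 lower in OSM-ESCs. Of all genes tested, 42.2% were higher and 25.9% lower in LIF-ESCs, 68.1% in either direction. In OSM-ESCs 42.9% were higher and 25.4% lower, 68.3% in either direction. Passing this test was thus common in these comparisons. With a log2 fold change of at least 1 also required, Hmox1 was higher in LIF-ESCs, where 13.3% of all genes were called higher, and Hmox1 and Akr1b8 were higher in OSM-ESCs, where 14.2% were. No member was called lower at that size, against 8.09% of all genes in LIF-ESCs and 7.86% in OSM-ESCs. Both comparisons share the 2 -LIF-ESCs libraries, so they are not independent. The share of all genes whose libraries lie apart between groups was not counted. Where the libraries of a member are said to lie apart, this is a description only.

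The scale matters for the small changes. The median log2 fold change of all genes tested against -LIF-ESCs was 0.17 with LIF and 0.18 with OSM, while that of the 10 members was -0.20 and -0.18. When libraries were rescaled by the median ratio, the median of all genes fell to 0.02 in both comparisons and that of the members to -0.37 in both. The direction of every member against -LIF-ESCs was kept after rescaling, but Srxn1 no longer passed the test.

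**Figure D1:**
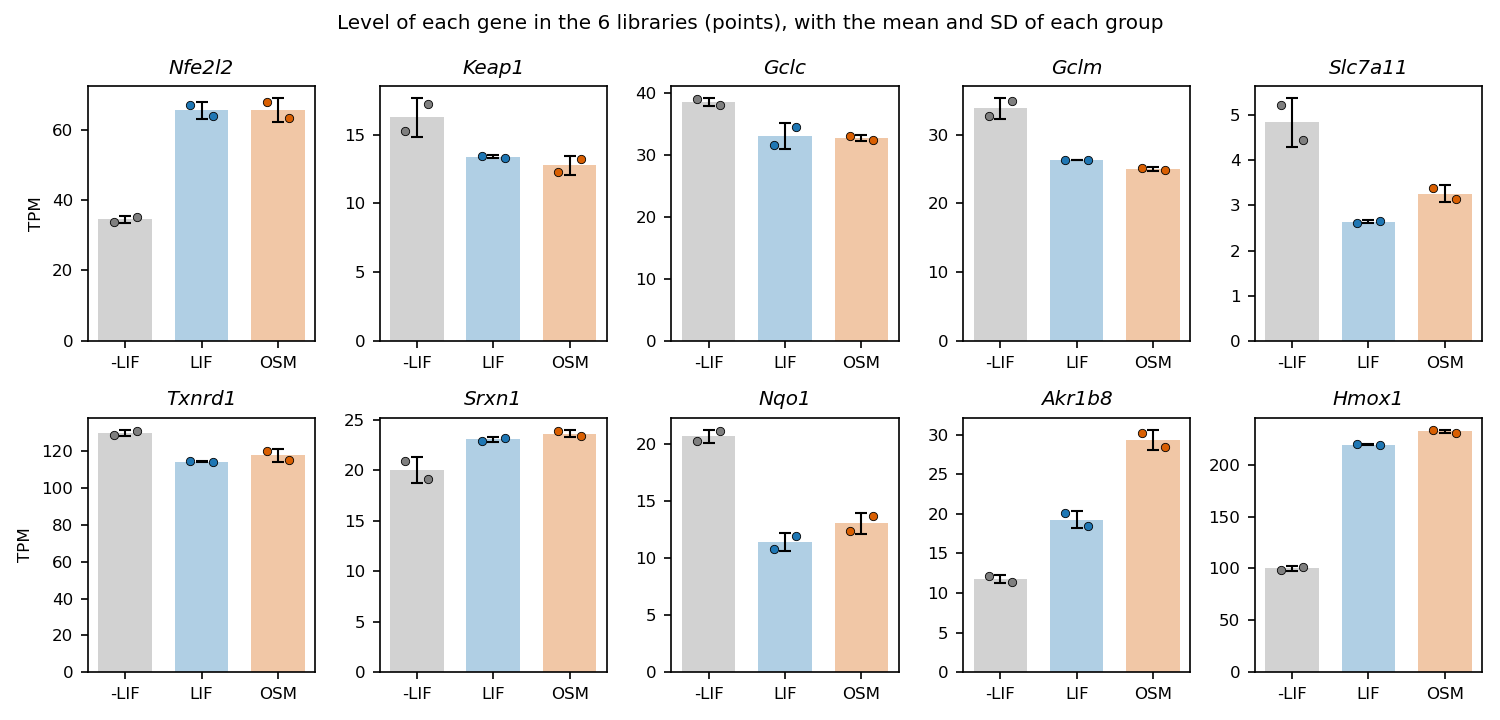
Level of each of the 10 genes in TPM (y axes, each starting at 0) in -LIF-ESCs, LIF-ESCs and OSM-ESCs, with points for the 2 libraries of a group, bars for the mean and error bars for the SD. Both cytokine groups lie apart from -LIF-ESCs in every panel, above for Nfe2l2, Srxn1, Akr1b8 and Hmox1 and below for the other 6 genes, and in Akr1b8 the OSM-ESCs libraries (30.2 and 28.4 TPM) also lie above the LIF-ESCs libraries (20.1 and 18.5 TPM). The share of all genes whose groups lie apart was not counted.

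The regulators moved in opposite directions. Nfe2l2 (chr2:75675513-75704641, minus strand, GRCm38) was at 33.8 and 35.3 TPM in -LIF-ESCs, 67.1 and 63.7 TPM in LIF-ESCs, and 67.9 and 63.2 TPM in OSM-ESCs. Both cytokine groups lay well above the control, and their libraries overlapped each other. The mean rose from 34.5 ± 1.03 TPM to 65.4 ± 2.38 TPM with LIF and 65.6 ± 3.34 TPM with OSM (SD, n = 2), which is 1.90-fold in both cases. This gave log2 fold changes of 0.90 (SE 0.05, adjusted p = 7.93e-05, limma) and 0.91 (adjusted p = 7.63e-05), or 0.73 and 0.72 after rescaling. Keap1 (chr9:21229730-21239361, minus strand), the repressor of Nrf2, was at 15.3 and 17.2 TPM in -LIF-ESCs, 13.5 and 13.3 TPM in LIF-ESCs and 12.3 and 13.2 TPM in OSM-ESCs. It was thus lower in every cytokine library, by less than the change of Nfe2l2. Its log2 fold changes were -0.26 (SE 0.08, adjusted p = 0.0293, limma) and -0.33 (adjusted p = 0.0130). Without replicate 2 of -LIF-ESCs these were -0.18 (adjusted p = 0.124) and -0.24 (adjusted p = 0.0581). Leaving out either LIF-ESCs library gave an adjusted p of 0.0937 or 0.106 with LIF, and leaving out replicate 1 of OSM-ESCs gave 0.0658 with OSM. Of the exon bases of Keap1, 10.9% overlap a gene model on the other strand, and the strand setting of the counting is not given in the sources used here. Within a library, Nfe2l2 transcripts outnumbered those of Keap1 by 2.21 and 2.04 to 1 without cytokine, 4.98 and 4.78 to 1 with LIF, and 5.53 and 4.78 to 1 with OSM.

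The genes for glutathione synthesis and cystine uptake were all lower in both cytokine groups. Gclc and Gclm code for the catalytic and modifier subunits of glutamate-cysteine ligase, which performs the rate-limiting step of glutathione synthesis. Gclc (chr9:77754535-77794485, plus strand) was at 39.0 and 38.0 TPM in -LIF-ESCs, 31.6 and 34.5 TPM in LIF-ESCs and 33.0 and 32.4 TPM in OSM-ESCs. The control libraries were the highest of the 6, and the cytokine groups overlapped. Its log2 fold changes were -0.22 (SE 0.06, adjusted p = 0.0171, limma) with LIF and -0.23 (adjusted p = 0.0138) with OSM. The LIF call was lost without either -LIF-ESCs library (adjusted p = 0.0788 and 0.0525) or LIF-ESCs replicate 1 (0.0763), and the OSM call without -LIF-ESCs replicate 1 (0.0669) or OSM-ESCs replicate 2 (0.0608).

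Gclm (chr3:122245557-122270732, plus strand) was at 32.8 and 34.9 TPM in -LIF-ESCs, 26.3 and 26.4 TPM in LIF-ESCs and 25.2 and 24.8 TPM in OSM-ESCs. All 3 groups were apart, with OSM-ESCs the lowest. In log2 terms the changes were -0.35 (SE 0.05, adjusted p = 0.00168, limma) with LIF and -0.42 (adjusted p = 7.98e-04) with OSM, and both held without any 1 library. Exons of other gene models overlap 4.7% of the exon bases of Gclm. Of the 50-base words in its exons, 4.6% occur in other genes, among them Ppia. The level of the catalytic subunit over the modifier was 1.19 and 1.09 without cytokine, 1.20 and 1.31 with LIF and 1.31 in both libraries with OSM, so the subunits stayed at near equal transcript levels throughout.

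Slc7a11 codes for xCT, the transporter that brings in cystine for glutathione. Slc7a11 (chr3:49892526-50443614, minus strand) was at 5.22 and 4.45 TPM in -LIF-ESCs, 2.61 and 2.66 TPM in LIF-ESCs, and 3.39 and 3.13 TPM in OSM-ESCs. It was the lowest of the 10 genes in every group, and no libraries of different groups overlapped. Of its 50-base words, 1.5% occur in other genes, among them the tubulin genes Tuba1a and Tuba1b. The mean fell from 4.83 ± 0.538 TPM to 2.63 ± 0.0344 TPM with LIF, a ratio of 0.545, and to 3.26 ± 0.183 TPM with OSM, a ratio of 0.675 (SD, n = 2). The log2 fold changes were -0.68 (SE 0.11, adjusted p = 0.00256, limma) and -0.45 (adjusted p = 0.0122), which understate the change because 1 TPM is added before the logarithm. Voom, a limma fit on recovered reads, gave -1.001 and -0.70. The OSM call was lost without -LIF-ESCs replicate 1 (-0.36, adjusted p = 0.0605) or OSM-ESCs replicate 2 (-0.41, adjusted p = 0.0584). Its partner chain, the surface protein CD98 coded by Slc3a2, moved the other way, from a mean of 112 TPM to 273 TPM with LIF and 278 TPM with OSM (log2 fold changes 1.28 and 1.30). Slc7a11 over Slc3a2 went from 0.0467 and 0.0396 without cytokine to 0.00959 and 0.00973 with LIF and 0.0122 and 0.0113 with OSM. CD98 also pairs with other amino acid transporters.

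Txnrd1 and Srxn1, the members of the thioredoxin and peroxiredoxin arm, changed little. Txnrd1 codes for cytosolic thioredoxin reductase, a selenoprotein that reduces thioredoxin with NADPH. Txnrd1 (chr10:82833951-82897712, plus strand) was at 128 and 131 TPM in -LIF-ESCs, 114.3 and 113.8 TPM in LIF-ESCs, and 120.1 and 115.0 TPM in OSM-ESCs. The cytokine libraries were all below the control. The log2 fold changes were -0.18 (SE 0.04, adjusted p = 0.00648, limma) with LIF and -0.14 (adjusted p = 0.0175) with OSM. The OSM call was lost without -LIF-ESCs replicate 2 (-0.13, adjusted p = 0.0775) or OSM-ESCs replicate 2 (-0.11, adjusted p = 0.0588). Its substrate thioredoxin, Txn1, fell further, with log2 fold changes of -1.19 and -1.06, so Txnrd1 over Txn1 went from 0.182 and 0.175 without cytokine to 0.349 and 0.365 with LIF and 0.338 and 0.336 with OSM.

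Srxn1 codes for sulfiredoxin, which repairs overoxidised peroxiredoxins. Srxn1 (chr2:152105516-152111376, plus strand) was at 20.9 and 19.1 TPM in -LIF-ESCs, 22.9 and 23.2 TPM in LIF-ESCs, and 23.9 and 23.4 TPM in OSM-ESCs. The libraries of the 3 groups did not overlap, but the steps between them were small. The log2 fold changes were 0.20 (SE 0.06, adjusted p = 0.0284, limma) with LIF and 0.23 (adjusted p = 0.0164) with OSM, close to the median of all genes. After rescaling they were 0.03 (adjusted p = 0.650) and 0.05 (adjusted p = 0.449). The LIF call was also lost without -LIF-ESCs replicate 2 (0.13, adjusted p = 0.107) or either LIF-ESCs library (adjusted p = 0.0886 and 0.111), and the OSM call without -LIF-ESCs replicate 2 (0.17, adjusted p = 0.0634) or OSM-ESCs replicate 1 (0.21, adjusted p = 0.0700).

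The genes for quinone and carbonyl reduction split. Nqo1 codes for a quinone reductase that is a standard readout of Nrf2 activity. Nqo1 (chr8:107388225-107403206, minus strand) was at 20.3 and 21.1 TPM in -LIF-ESCs, 10.8 and 12.0 TPM in LIF-ESCs, and 12.4 and 13.7 TPM in OSM-ESCs. The control was the highest group and LIF-ESCs the lowest, with no overlap. The mean fell from 20.7 ± 0.567 TPM to 11.4 ± 0.811 TPM with LIF and 13.1 ± 0.897 TPM with OSM (SD, n = 2). On the log2 scale Nqo1 changed by -0.81 (SE 0.08, adjusted p = 4.05e-04, limma) and -0.63 (adjusted p = 0.00104), and both held without any 1 library. With LIF, Nqo1 had the most negative change of the 10 genes on this scale, while by the ratio of means Slc7a11 (0.545) was just below Nqo1 (0.551).

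Akr1b8, a member of the aldo-keto reductase family that reduces carbonyl compounds such as retinal and lipid aldehydes, rose in steps. Akr1b8 (chr6:34354119-34368463, plus strand) was at 12.1 and 11.4 TPM in -LIF-ESCs, 20.1 and 18.5 TPM in LIF-ESCs, and 30.2 and 28.4 TPM in OSM-ESCs. The groups lay in 3 separate bands, on 206 and 159 reads, 282 and 250 reads, and 458 and 517 reads. The mean rose from 11.8 ± 0.523 TPM to 19.3 ± 1.11 TPM with LIF, 1.64-fold, and to 29.3 ± 1.28 TPM with OSM, 2.49-fold (SD, n = 2). The log2 fold changes were 0.67 (SE 0.07, adjusted p = 5.04e-04, limma) and 1.25 (adjusted p = 5.33e-05), and both held without any 1 library. Of the 50-base words in its exons, 2.9% occur in other genes, mostly in the close relative Akr1b10. Akr1b10 itself was at means of 6.41, 3.65 and 4.75 TPM in -LIF-ESCs, LIF-ESCs and OSM-ESCs, with the control the highest. Akr1b8 over the general aldose reductase Akr1b3 was 0.266 and 0.263 without cytokine, 0.542 and 0.496 with LIF, and 0.705 and 0.673 with OSM.

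Hmox1, which codes for the inducible heme oxygenase that splits heme into biliverdin, iron and carbon monoxide, had the clearest change. Hmox1 (chr8:75093621-75100589, plus strand) was at 98.3 and 102 TPM in -LIF-ESCs, 219.5 and 218.7 TPM in LIF-ESCs, and 233 and 231 TPM in OSM-ESCs. The replicates were close and the control far below. The mean rose from 100.0 ± 2.47 TPM to 219 ± 0.511 TPM with LIF, 2.19-fold, and to 232 ± 1.71 TPM with OSM, 2.32-fold (SD, n = 2). The log2 fold changes were 1.12 (SE 0.03, adjusted p = 9.34e-06, limma) and 1.21 (adjusted p = 7.35e-06). After rescaling they were 0.95 and 1.02, so the LIF change then lay just under the size required for a call. The constitutive heme oxygenase, Hmox2, fell, with log2 fold changes of -0.63 and -0.53, and Hmox1 over Hmox2 went from 2.52 and 2.34 without cytokine to 7.98 and 8.77 with LIF and 8.01 and 8.45 with OSM. Set against Nqo1, the other standard target, Hmox1 over Nqo1 went from 4.84 and 4.82 to 20.2 and 18.2 with LIF and to 18.8 and 16.8 with OSM.

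**Figure D2:**
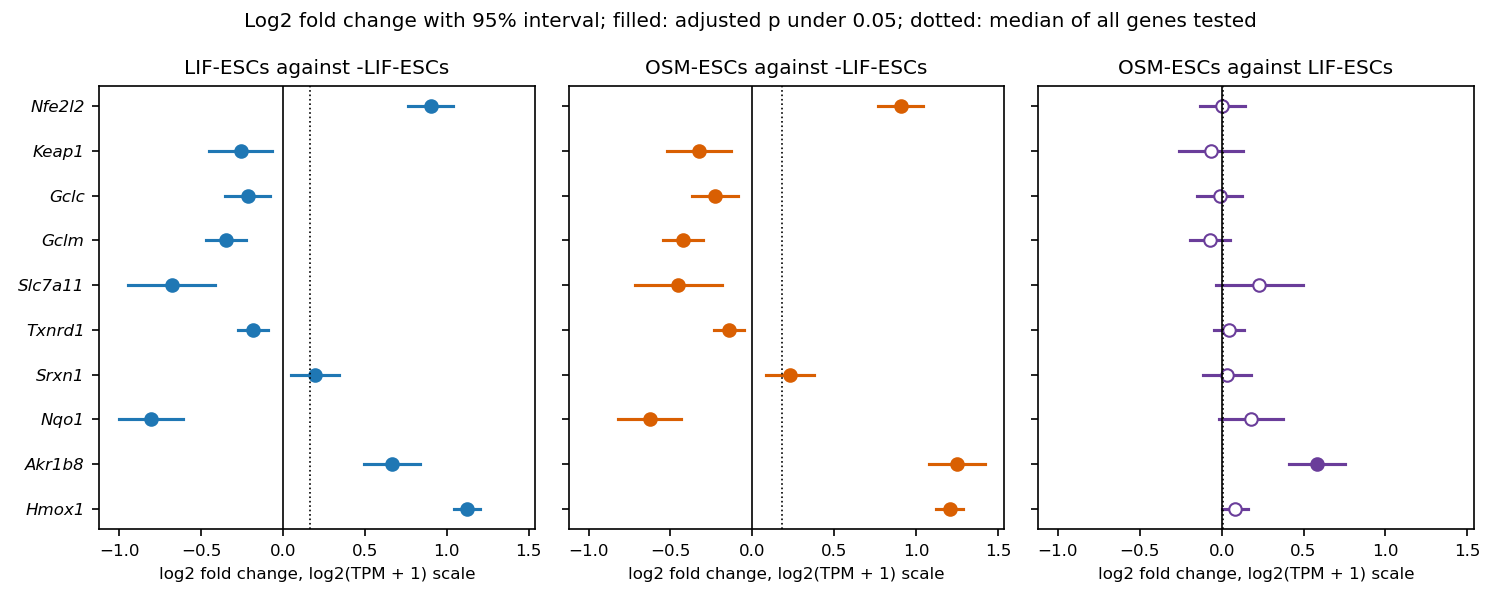
Log2 fold change of each gene on the log2(TPM + 1) scale (x axis) with its 95% interval from limma, for LIF-ESCs against -LIF-ESCs, OSM-ESCs against -LIF-ESCs and OSM-ESCs against LIF-ESCs. Filled points passed an adjusted p of 0.05 and the dotted line is the median of all genes tested (0.17, 0.18 and 0.01). All 10 genes are filled in both panels against -LIF-ESCs, and only Akr1b8 (0.58) in the last.

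Between the cytokines, Akr1b8 alone of the 10 genes passed the test. OSM-ESCs had 1.52-fold the level of LIF-ESCs, with a log2 fold change of 0.58 (SE 0.07, 95% interval 0.41 to 0.75, adjusted p = 0.0462, limma). Of all genes tested, 0.463% were higher and 0.129% lower in OSM-ESCs, 0.593% in either direction. At an unadjusted p under 0.05, 2 of the 10 members passed, Akr1b8 and Hmox1, beside 15.3% of all genes. No member was called with a log2 fold change of at least 1, against 0.0323% of all genes called higher and 0.0485% called lower. The error of the log2 ratio from counting reads alone was 0.08. The call is close to its threshold: it was lost with a pseudocount of 0.1 (adjusted p = 0.0559), with no filter (0.0616), without a trend in the spread (0.0815) and with only the 2 groups compared in the fit (0.117). It was lost without any 1 of the 6 libraries (adjusted p from 0.123 to 0.261), while the change itself stayed between 0.53 and 0.64. It was kept after rescaling (0.57, adjusted p = 0.0435) and in voom on recovered reads (0.60, adjusted p = 2.10e-04).

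The sum of the fibroblast markers, but not every marker, moved in the same order as Akr1b8. It was 509 to 541 TPM in -LIF-ESCs, 900 to 901 TPM in LIF-ESCs and 1358 to 1360 TPM in OSM-ESCs. With OSM against LIF, 7 of the 22 tested rose by limma, beside 0.463% of all genes, and the median log2 fold change was 0.42. Those 7 were Col1a1, Col1a2, Col5a1, Lox, Acta2, Tagln and Mmp2. Against -LIF-ESCs, 19 of the 22 were higher and 3 lower with either cytokine, and the 3 were Col5a1, Tagln and Mmp2. Of all genes tested, 42.2% were higher and 25.9% lower with LIF, and 42.9% and 25.4% with OSM. Tagln, for example, had means of 354 TPM without cytokine, 168 TPM with LIF and 280 TPM with OSM, so these 3 were highest in the control. In the same comparison the median log2 fold change was -0.23 for 9 primitive endoderm markers, 0.22 for 8 epithelial markers and -0.15 for the 10 pluripotency markers. The part of fibroblast RNA in the level of Akr1b8 was not tested.

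**Figure D3:**
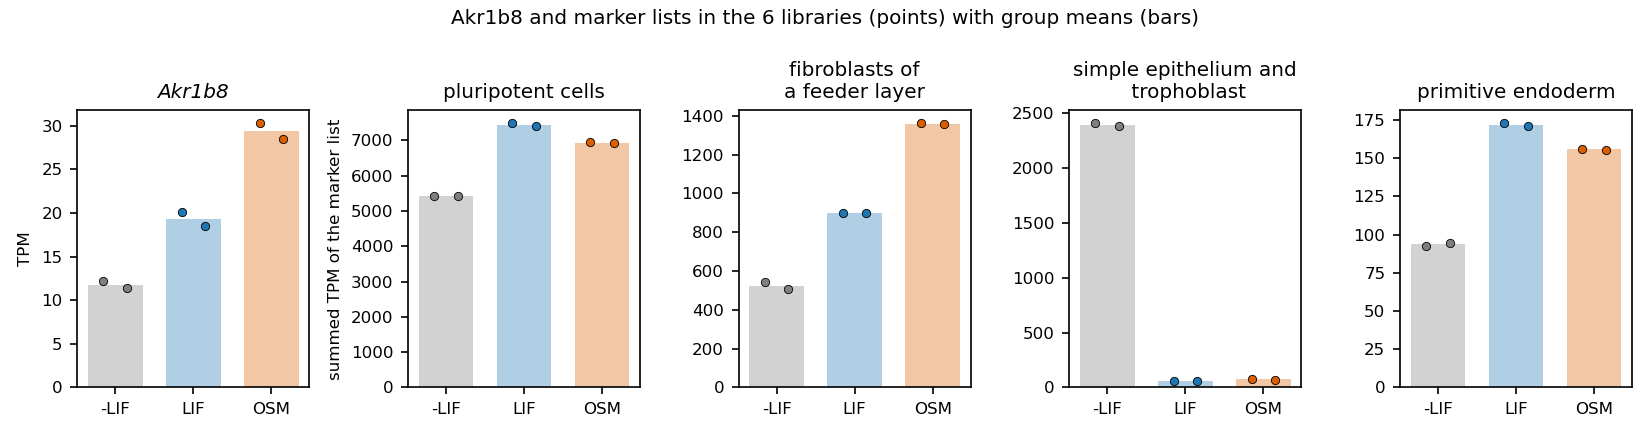
Akr1b8 in TPM and the summed TPM of 4 marker lists (y axes, each starting at 0) in -LIF-ESCs, LIF-ESCs and OSM-ESCs, with points for the 2 libraries of a group and bars for the mean. Akr1b8 and the sum of the fibroblast list (509 to 541, 900 to 901 and 1358 to 1360 TPM) both step up from -LIF-ESCs to LIF-ESCs to OSM-ESCs, while the epithelial list drops from at least 2385 TPM to under 76 TPM in both cytokine groups.

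The other 9 genes gave these intervals for OSM-ESCs against LIF-ESCs on the log2 scale. Nfe2l2 differed by 0.00 (95% interval -0.13 to 0.14) and Keap1 by -0.07 (-0.26 to 0.13). Gclc differed by -0.01 (-0.15 to 0.13), Gclm by -0.07 (-0.20 to 0.05) and Slc7a11 by 0.23 (-0.04 to 0.49). Txnrd1 differed by 0.04 (-0.05 to 0.13), Srxn1 by 0.03 (-0.11 to 0.18) and Nqo1 by 0.18 (-0.01 to 0.37). Each of these intervals includes 0, and those of Slc7a11 and Nqo1 also leave room for a higher level with OSM. Hmox1 differed by 0.08 (0.00 to 0.16), with a limma p of 0.0499 that was 0.327 after adjustment. The libraries of OSM-ESCs and LIF-ESCs overlapped in Nfe2l2 and Gclc. Elsewhere they were apart, lower with OSM in Keap1 and Gclm and higher in the rest. The share of all genes apart in this way is not given here, so this is not read as a difference between the cytokines. With 2 libraries against 2, an exact permutation test on a single gene cannot go below p = 0.333.

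The order of the levels within a group also shifted. In -LIF-ESCs Txnrd1 was the highest of the 10 genes, followed by Hmox1, Gclc, Nfe2l2, Gclm, Nqo1, Srxn1, Keap1, Akr1b8 and Slc7a11. Nfe2l2 and Gclm overlapped there, as did Nqo1 and Srxn1. In LIF-ESCs the order was Hmox1, Txnrd1, Nfe2l2, Gclc, Gclm, Srxn1, Akr1b8, Keap1, Nqo1 and Slc7a11, with no overlap between neighbours. In OSM-ESCs Akr1b8 stood above Gclm and Srxn1, and Nqo1 and Keap1 overlapped. Among all genes tested, Hmox1 went from percentile 92.5 without cytokine to 96.7 with LIF and 96.9 with OSM, whereas Nqo1 went from 67.7 to 50.3 and 52.9.

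A wider list of 101 Nrf2 pathway genes, 100 of them in the table and 89 tested, was split in the same way. With LIF, 30 were higher, 48 lower and 11 neither, and with OSM 30 were higher, 44 lower and 15 neither, beside the 42.2% and 42.9% of all genes that were higher and the 25.9% and 25.4% that were lower. After rescaling the counts were 25 higher and 51 lower with LIF and 27 and 52 with OSM. The shares of all genes above are from the fit before rescaling and are not a background for these rescaled counts. The median log2 fold change of the list was -0.21 with LIF and -0.19 with OSM. After rescaling it was -0.38 and -0.37, where that of all genes was 0.02 in both comparisons.

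The counts by role stand beside 42.2% of all genes higher and 25.9% lower with LIF, and 42.9% and 25.4% with OSM. No role was tested against these shares. The glutathione genes had 8 higher and 15 lower of 26 tested with LIF, and 8 and 14 with OSM. Of 7 genes supplying NADPH, 1 was higher and 5 lower with either cytokine, and of 7 other genes of heme and iron 2 were higher and 4 lower. The thioredoxin, peroxiredoxin and sestrin genes had 5 higher and 8 lower of 16 with either cytokine. Detoxifying enzymes were even with LIF, 7 higher and 7 lower of 15, and had 7 higher and 5 lower with OSM (7 and 7 after rescaling). Of 4 genes that remove superoxide and peroxide, 2 were higher and 2 lower. Among 14 partners and regulators 5 were higher and 7 lower with LIF, and 5 and 6 with OSM.

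The DNA-binding partners Mafg and Mafk rose with LIF (log2 fold changes 0.49 and 0.48) and with OSM (0.52 and 0.50), as did Nfe2l1, a relative of Nfe2l2 (0.62 and 0.63). Others of these families went the other way. The small Maf gene Maff was at -0.30 with LIF (adjusted p = 0.0217, limma) and -0.19 with OSM (adjusted p = 0.0853), and Nfe2l3, another relative, fell by 1.39 and 1.38 on the log2 scale. The ligase parts Cul3 and Rbx1 fell with LIF (-0.21 and -0.36) and with OSM (-0.27 and -0.28), like Keap1. Bach1, the repressor that competes with Nrf2 at Hmox1, was at 21.3 and 19.6 TPM in -LIF-ESCs, 25.1 and 23.1 TPM in LIF-ESCs and 24.1 and 23.4 TPM in OSM-ESCs. Its log2 fold changes of 0.23 (adjusted p = 0.0268, limma) and 0.21 (adjusted p = 0.0357) were near the median of all genes and were 0.06 (adjusted p = 0.426) and 0.03 (adjusted p = 0.697) after rescaling. Bach1 over Nfe2l2 went from 0.630 and 0.555 without cytokine to 0.374 and 0.362 with LIF and 0.354 and 0.371 with OSM. The genes of this paragraph, and Slc3a2, Txn1 and Hmox2 above, were singled out after their values were seen.

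The 3 largest rises and falls of the wider list on the log2(TPM + 1) scale follow, and a scale without the added 1 TPM ranks low genes such as Ugt1a7c, Aldh1a1, Sod3 and Nfe2l3 higher. Chac1, which breaks down glutathione and is a target of the stress factor Atf4, went from a mean of 4.43 ± 0.612 TPM to 278 ± 1.98 TPM with LIF and 282 ± 4.72 TPM with OSM (SD, n = 2), 62.8-fold and 63.7-fold. Sesn2, a stress-induced sestrin that damps mTORC1, went from 42.0 ± 0.802 TPM to 231 ± 8.92 TPM and 234 ± 5.33 TPM, 5.50-fold and 5.58-fold. Both lay far above the control in every cytokine library. Ugt1a1, which conjugates bilirubin, had only 1 and 2 reads in -LIF-ESCs, 81 and 77 reads in LIF-ESCs, and 133 and 169 reads in OSM-ESCs. The ratio of reads per depth was 53.8 (exact 95% interval 18.1 to 264, counting error only) with LIF and 85.2 (28.9 to 416) with OSM. The Ugt1a genes share exons, and Ugt1a6a had nearly the same reads, 1 and 2 in -LIF-ESCs and 85 and 79 in LIF-ESCs. The same reads may thus be counted for more than 1 of these genes, and the rise cannot be assigned to Ugt1a1 alone.

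Among the falls, Slc40a1, the iron exporter ferroportin, went from 13.6 ± 0.0717 TPM to 0.579 ± 0.0352 TPM with LIF and 0.680 ± 0.0749 TPM with OSM, with log2 fold changes of -3.21 and -3.12. The glutathione transferase Gstm3 went from 12.6 ± 1.24 TPM to 1.25 ± 0.269 TPM and 1.30 ± 0.508 TPM, and the glutathione peroxidase Gpx2, typical of gut epithelium, from 6.70 ± 0.563 TPM to 0.961 ± 0.0449 TPM and 1.07 ± 0.0793 TPM. These falls ran beside that of the epithelial markers, from at least 2385 TPM to under 76 TPM in sum, and the part of epithelial RNA in them was not tested.

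**Figure D4:**
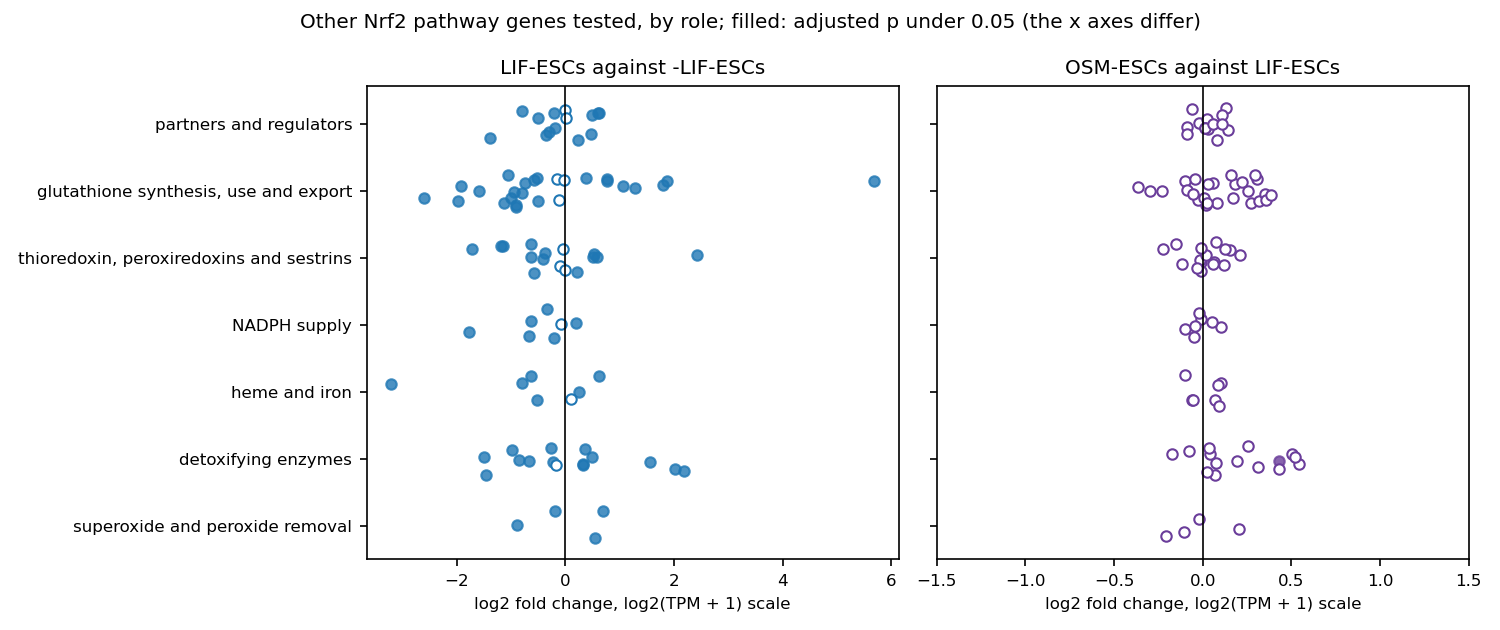
Log2 fold changes on the log2(TPM + 1) scale (x axes, of different ranges) of the 89 other pathway genes tested, in rows by role, for LIF-ESCs against -LIF-ESCs and OSM-ESCs against LIF-ESCs. Filled points passed an adjusted p of 0.05 in limma: 78 genes spread from -3.21 to 5.69 in the first comparison, and 1 gene, Ephx1 at 0.43, in the second.

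Of the 89 pathway genes, 1 passed the test between the cytokines and was higher with OSM, and 0 were lower, beside 0.463% and 0.129% of all genes. Before adjustment 22 of the 89 had p under 0.05, beside 15.3% of all genes. The gene that passed was Ephx1, microsomal epoxide hydrolase, at 23.1 and 23.4 TPM in -LIF-ESCs, 29.0 and 29.6 TPM in LIF-ESCs, and 40.9 and 38.6 TPM in OSM-ESCs. Like Akr1b8 it rose in steps. Its log2 fold change between the cytokines was 0.43 (SE 0.05, adjusted p = 0.0462, limma), a call that was lost when any library was left out. Voom on recovered reads tested 77 of the pathway genes and passed 10 higher and 3 lower. The voom counts over all genes, given at the end, were also far above those of the main fit. The voom counts of the list are thus not read as a result about the list.

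The genes most like Nfe2l2 and Nqo1 across the 6 libraries were sought among 9886 genes with a mean of at least 5 TPM, by the root mean square difference of their centred log2 values. Nearest to Nfe2l2 were Mcoln1, Polr1a and Ccnl2, each at 0.024 log2 units. Mcoln1, a lysosomal calcium channel, had means of 7.37, 15 and 14.9 TPM in -LIF-ESCs, LIF-ESCs and OSM-ESCs. The pattern was common, with 752 genes within 0.1. Nearest to Nqo1 were P4ha2, a collagen prolyl hydroxylase (0.045), the sorting nexin Snx1 (0.048) and the ribosomal protein gene Rpl27 (0.050), with 165 genes within 0.1. With 3 groups, such likeness mostly repeats the steps between group means.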

How the data were processed

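RNA of 6 mESC libraries (3 groups of 2) was prepared by the authors with poly(A) selection and a NEBNext Ultra kit. Per the labels and the study's methods, reads were trimmed with Trimmomatic, aligned to mm10 with HISAT2 and counted with featureCounts. The authors deposited TPM values, which sum to 999949.5 to 999966.0 per library. Versions, the annotation and the strand setting are not given in the sources used here. The study tested counts with DESeq2, which was not repeated.

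Groups were compared by limma (version 3.58.1, R 4.3.3) on log2 TPM values with a pseudocount of 1, with all 6 libraries in 1 fit, eBayes with a trend, and Benjamini-Hochberg adjustment over the 18556 genes that reached 1 TPM in 2 or more libraries. The fit had 3 residual degrees of freedom, 5.33 with the prior. A fold change on this scale understates that of low genes. Calls needed a log2 fold change of 1 or more in size beside an adjusted p under 0.05. Exon lengths of GENCODE M21 (GRCm38) matched 28405 symbols (99.4%). With them, 95.4% of values were whole reads within 0.02 of a read, giving 20712941 to 28994417 reads per library. These reads served for depth and for voom, which tested 17273 genes. Intervals on reads cover counting error only.

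Members and gene lists were chosen with earlier results of these data known. From the wider list, the 3 largest rises and falls against -LIF-ESCs and the genes passing between the cytokines are named. Replicate numbers did not pair the libraries (correlations of replicate differences -0.04, -0.02 and 0.03). The fit was also run on simulated reads with large known changes, which does not bear on small changes or on calls near the threshold. Plots used matplotlib 3.10.9, and tables Python 3.11.15 with numpy 2.4.6 and pandas 2.3.3.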

Additional observations from a re-analysis of the deposited data

Results flagged for a closer look

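The response of Akr1b8 to OSM exceeded its response to LIF by 0.58 on the log2 scale, by the limma contrast of OSM-ESCs against LIF-ESCs (adjusted p = 0.0462). This call is close to its threshold and was lost under several of the settings given above. Both OSM-ESCs libraries lay above both LIF-ESCs libraries. The libraries of these groups were apart in every member but Nfe2l2 and Gclc, and the share over all genes was not counted. No explanation was tested.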

How the results depend on the processing

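Each member kept its direction against -LIF-ESCs under each alternative that gave it a value (Slc7a11 had none under the 5 TPM filter). The count of members called higher with LIF was 0 after median ratio rescaling (1 as deposited), and the count called lower was 1, Slc7a11 at -1.001, in voom (0 in the TPM fit). With OSM, members lower at an adjusted p under 0.05 ranged from 3 to 6 when 1 library was left out, with 3 without OSM-ESCs replicate 2. Between the cytokines, the count of members higher at an adjusted p under 0.05 went from 1 to 0 with a pseudocount of 0.1, no filter, no trend or only the groups compared, and ranged from 0 to 0 without 1 library. Nfe2l2 was at -0.01 after rescaling and from -0.048 to 0.054 without 1 library, and Gclc from -0.075 to 0.049. The cause was not tested.

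Over all genes, 86 were higher and 24 lower with OSM than with LIF at an adjusted p under 0.05, against 0 and 0 with only the groups compared and 898 and 434 in voom, so this comparison depends on the model. With the replicate number as a block, 0 members were higher between the cytokines (Akr1b8 adjusted p = 0.134) and 0 genes passed in either direction. The block changed no call of a member against -LIF-ESCs. Where 1 library was left out, the lone library is assumed to vary like the others. With 2 libraries a group, small changes such as those of Keap1, Gclc, Txnrd1 and Srxn1 are at the limit of what can be told.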
